A study of Canis lupus familiaris with 23 samples.

Results

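S100 genes encode small calcium-binding proteins, and 10 of them, S100A2, S100A4, S100A6, S100A8, S100A9, S100A10, S100A11, S100A12, S100A14 and S100A16, are described here in dog skin and in epidermal organoids. The members are the rows of the deposited gene tables whose name equals one of these symbols, 10 of the 21416 entries that the 23 libraries list between them. All 10 were listed by every library and passed the filter on low counts, so that each is among the 9888 genes tested. They are not the whole family: S100A1, S100A3, S100A5, S100A13, S100B, S100G and S100P were listed too, and are taken up below as other S100 genes.

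RNA from whole samples was read by CEL-seq2, which tags and counts the 3′ end of each transcript, and the 23 libraries form 12 groups. Organoids are clusters of cells grown from tissue in a gel with growth factors. Those from hair follicles were kept in differentiation medium without Noggin, R-Spondin-1 and Forskolin (2 libraries), in differentiation medium without Noggin and R-Spondin-1 (2), in differentiation medium (2), in expansion medium with a Tgf-beta inhibitor at passages 3 to 6, called later (2), or 0 to 1, called early (3), and in expansion medium without the inhibitor later (2) or early (2). Those from interfollicular epidermis, the skin between follicles, were grown with the inhibitor and gave 1 later and 1 early library. The differentiation groups were cultures of passages 3 to 6, and all organoids were taken at day 7. The labels do not say whether the differentiation media held the inhibitor. The tissues were hair follicles of the anagen (growing) and telogen (resting) phases mixed together, interfollicular epidermis and whole skin, with 2 libraries each. Noggin is an inhibitor of BMP signals, R-Spondin-1 a booster of Wnt signals and Forskolin an activator of cAMP synthesis. The labels give neither the breed nor the number of dogs, and do not say whether replicates came from separate dogs or cultures, so that the p-values measure only the spread between these libraries, which may be technical.

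S100 proteins work as dimers that change shape when calcium binds and then grip partner proteins. In human and mouse, S100A8 and S100A9 pair to form calprotectin, which takes zinc and manganese from microbes and, once released, acts as an alarm signal on receptors such as TLR4. S100A8, S100A9 and S100A12 are stored in large amounts by neutrophils and monocytes, but keratinocytes also make them, sparsely in resting epidermis and strongly in wounds and psoriasis. S100A10 and S100A11 bind annexins at membranes, S100A2 marks basal keratinocytes, and S100A4 is made by fibroblasts, immune cells and other motile cells.

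Total counts ran from 86301 in interfollicular epidermis replicate 2 to 4822410 in early inhibitor organoids replicate 3, and mitochondrial transcripts took 5.32 to 26.4% of them. Member counts ran from 0 (S100A4) to 103120 (S100A10). Early inhibitor organoids replicate 1 stood apart from its group: its chi-square per degree of freedom was 78.9 against replicate 2 and 68.4 against replicate 3, while those 2 differed by 17.9. It held the lowest mitochondrial share (5.32%). Calls of members and their places in the order of groups that rest on it are given with and without it. Levels and changes of other genes are given only with it. Basal keratinocyte markers were present in every group, with the sum of KRT5, KRT14, COL17A1, ITGA6 and TP63 between 27266 and 77442 CPM in organoids and 7042 and 16431 CPM in tissue. CPM here is a count per 1000000 counts of its library, with library sizes corrected by edgeR's TMM factors, and levels are not divided by gene length since CEL-seq2 reads transcripts at their 3′ end.

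The 10 genes together took 1.54 to 8.24% of the counts of the 17 organoid libraries, against 0.932 to 1.19% in the 6 tissue libraries, and these ranges did not overlap. Within the organoids the share was 2.82 to 7.05% in differentiation media, 2.26 and 6.23% in interfollicular organoids, 3.35 to 8.24% in follicle organoids with the inhibitor and 1.54 to 3.46% in those without it. S100A10 was the most counted member in all 23 libraries, at 35.9 to 69.3% of the family's counts, and ranked 1 to 11 among all genes of an organoid library against 8 to 16 in tissue. S100A4 was the least counted member in 16 of the 17 organoid libraries, and S100A9 in all 6 tissue libraries. In early inhibitor organoids replicate 1, S100A12 alone made up 20.9% of the family's counts, and the family share was 8.24%, against 3.35 and 4.17% in replicates 2 and 3.

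**Figure D1:**
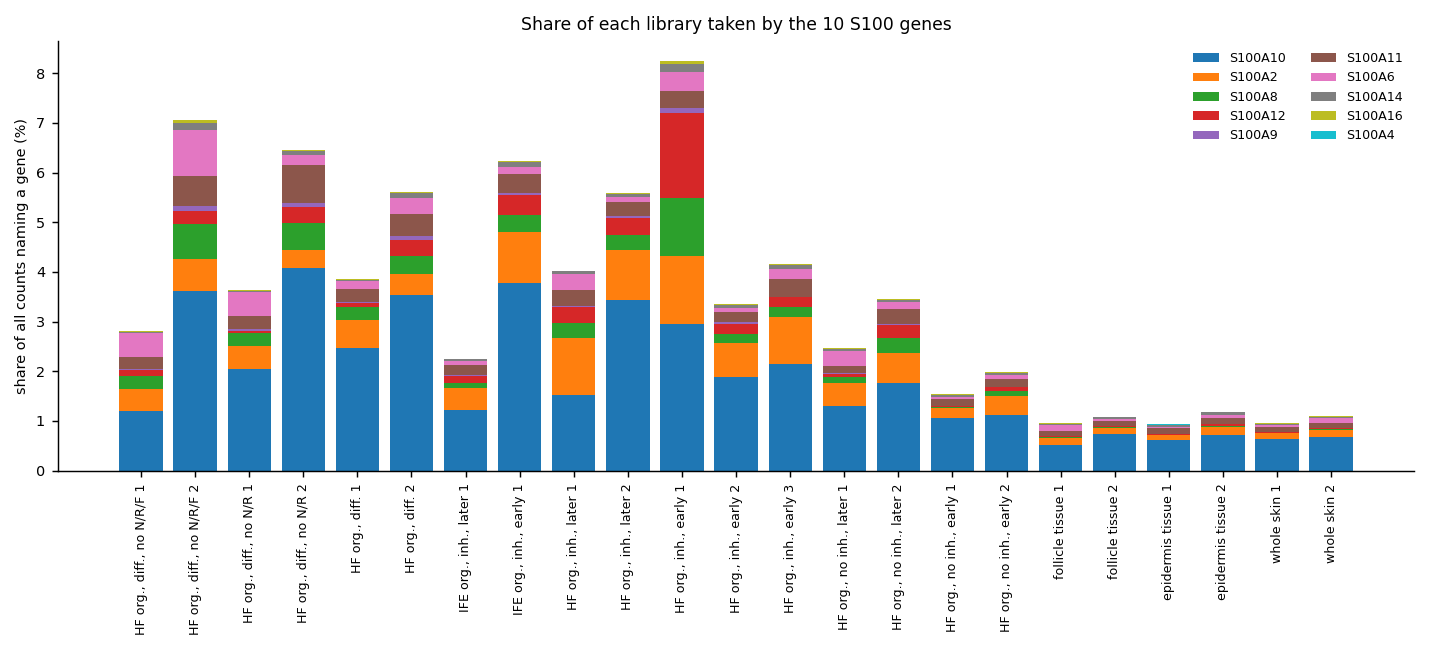
Share of all gene-naming counts (%, vertical axis) taken by the 10 S100 genes in each of the 23 libraries, stacked by gene; N, R and F are Noggin, R-Spondin-1 and Forskolin, org. is organoids and inh. is Tgf-beta inhibitor. Organoid bars reach 1.54 to 8.24%, tissue bars 0.932 to 1.19%, and S100A10 is the largest block of each bar.

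Group means spanned 61.5-fold for S100A12, 54.3-fold for S100A9 and 45.3-fold for S100A8. Without early inhibitor organoids replicate 1 these spans were 27.3-, 54.3- and 37.0-fold. For S100A4 no fold is given, since its lowest group mean, 1.00 CPM in later inhibitor organoids, comes from 0 and 2 counts. They spanned 28.9-fold for S100A6, 13.9-fold for S100A2 and 9.23-fold for S100A16. S100A10, S100A11 and S100A14 varied least, at 7.11-fold, 5.97-fold and 4.11-fold (3.12-fold for S100A14 without early inhibitor organoids replicate 1). The SD of the 12 group means on the log2 scale was 2.14 for S100A9, 2.06 for S100A8 and 0.60 for S100A14, beside a median of 0.79 over all tested genes.

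**Figure D2:**
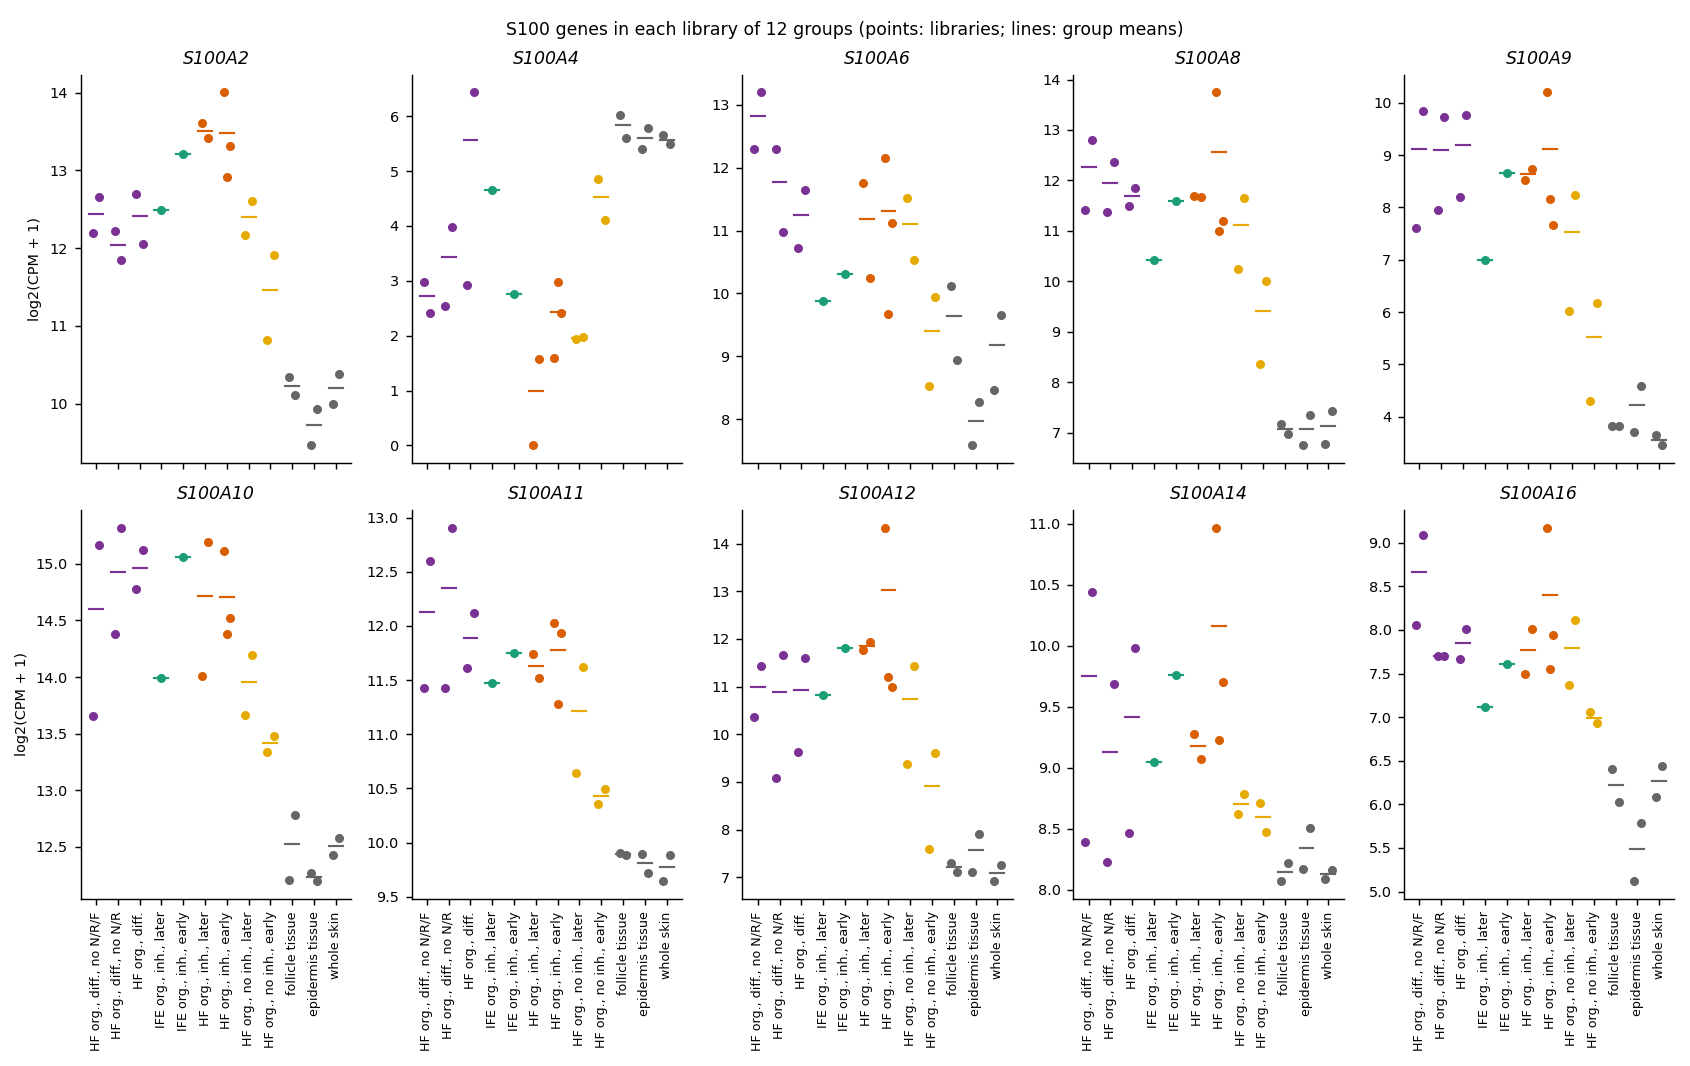
Level of each S100 gene, as log2(CPM + 1) on a vertical axis of its own, in the libraries (points) and as the mean (line) of 12 groups. The 3 tissue groups at the right are the lowest for S100A8, S100A9, S100A10, S100A11, S100A12, S100A14, S100A16 and S100A2, while S100A4 is highest in follicle tissue (55.9 CPM on average) and lowest in later inhibitor organoids (1.00 CPM).

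Follicle organoids in expansion medium were first set against follicle tissue. In this comparison 7 of the 10 members were called higher and 1 lower at an adjusted p under 0.05, where 9.06% of all tested genes were called higher and 19% lower (28% in all). The median log2 change was 1.60 over the members and 0.00 over all tested genes. The 9 organoid libraries did not overlap the 2 tissue libraries for 9 members, as for 34.5% of all tested genes. The exception was S100A6.

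The alarmins S100A8, S100A9 and S100A12 had the largest rises. S100A8 had a lowest, median and highest level of 325.3, 2341 and 13771 CPM in the 9 organoid libraries, against 142.7 and 124.2 CPM in follicles. All 9 organoid libraries lay above both follicle libraries, by 4.13 ± 0.78 (SE) on the log2 scale (adjusted p = 0.000299). S100A9 had 18.7, 283.7 and 1178 CPM in organoids against 13.1 and 13.2 CPM in follicles, a rise of 3.98 ± 0.92 (adjusted p = 0.00222). S100A12, which binds zinc and copper and is present in dogs but missing from the mouse genome, had 190.7, 2361 and 20644 CPM in organoids against 155.8 and 137.3 CPM, a rise of 3.94 ± 1.00 (adjusted p = 0.00471). For each of the 3 genes the lowest organoid library was early replicate 1 without the inhibitor and the highest early replicate 1 with it. Without that highest library the rises were 3.77, 3.69 and 3.46 and stayed called. S100A9 and S100A12 lost their call when follicle replicate 2 was left out (adjusted p = 0.0534 and 0.0818), and S100A12 also without follicle replicate 1 (0.0596), at changes of 3.83 to 4.05.

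Neutrophils and monocytes store the same 3 proteins, and of 6 of their markers tested 4 fell and 0 rose. The part of these cells in the alarmin values was not tested. The 11 of 14 such markers listed summed to 1.33 to 7.85 CPM in follicle organoids in expansion medium, against 21.3 to 45.8 CPM in follicles. PTPRC, the pan-leukocyte gene, AIF1 and the myeloid factor SPI1 had no count in any expansion group of organoids, while CXCR2 and CD14 had some counts in each such group from follicles. The markers that fell were TYROBP (by 5.76), SPI1 (by 5.32), PTPRC (by 5.06) and LAPTM5 (by 3.06). With no count of SPI1 and PTPRC in the organoids, the sizes of these 2 falls are not measured folds. All 11 markers together held 34 and 35 counts in the follicle libraries. The Langerhans and dendritic genes CD74 and DLA-DRA fell by 4.69 and 5.49.

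**Figure D3:**
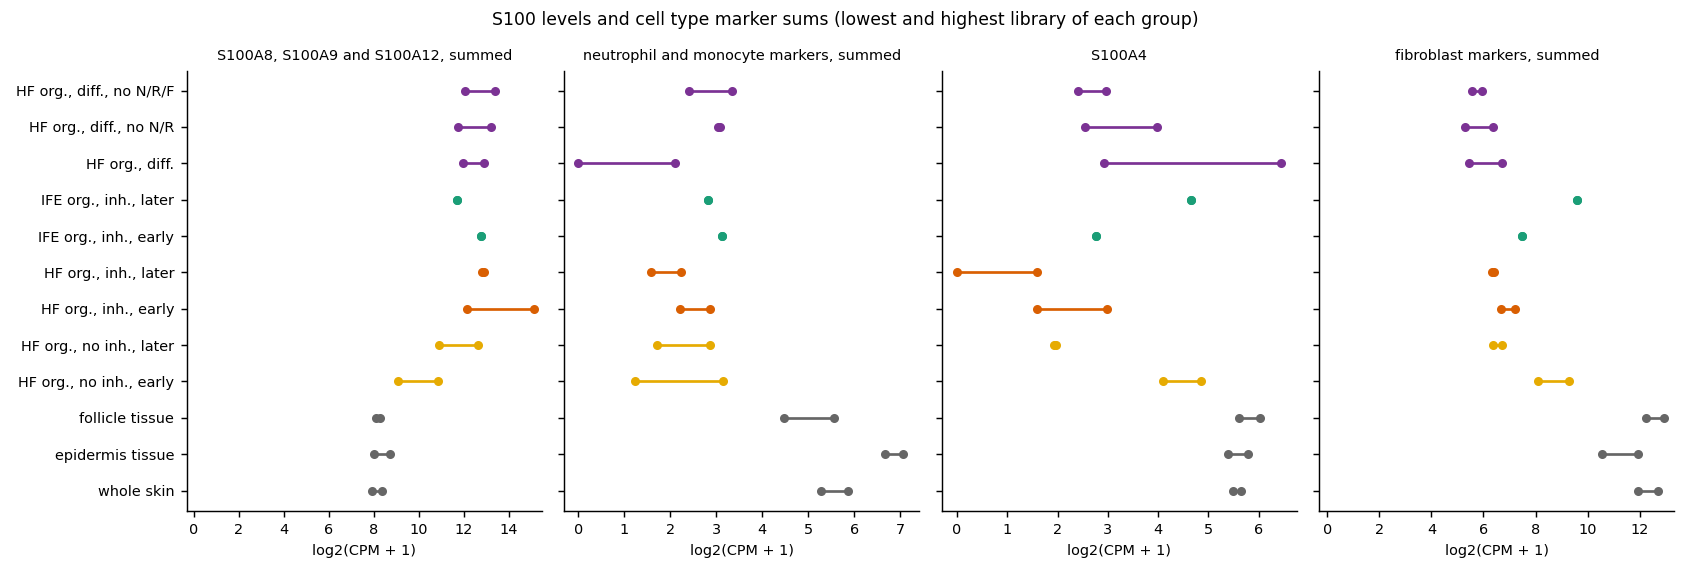
Lowest and highest library of each group (joined points) for the sum of S100A8, S100A9 and S100A12, the sum of neutrophil and monocyte markers, S100A4, and the sum of fibroblast markers, each as log2(CPM + 1) on the horizontal axis. The alarmins are higher in every organoid group than in tissue while the leukocyte markers are lower, at 0 to 9.13 CPM against 21.3 to 132.7 CPM; markers that the differentiation files do not list, PTPRC, AIF1 and SPI1 among them, add nothing there.

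S100A10, the partner of annexin A2 in a membrane complex that binds plasminogen, had 10384, 18705 and 37354 CPM (lowest, median, highest) in the 9 organoid libraries, against 4733 and 7035 CPM in follicles. Every organoid library lay above both follicle libraries, and the rise was 1.68 ± 0.44 (adjusted p = 0.00659). S100A11, which binds annexin A1 in keratinocytes, had 1313, 2939 and 4172 CPM in organoids against 957.0 and 943.8 CPM, a rise of 1.37 ± 0.41 (adjusted p = 0.0157). S100A10 lost its call without follicle replicate 1 (1.44, adjusted p = 0.121) and S100A11 without either follicle library (adjusted p = 0.113 and 0.143). Of the 5 annexins tested, ANXA2 rose by 1.30 ± 0.48 (48.0 against 19.4 CPM, adjusted p = 0.047) and none fell. ANXA1 changed by 1.02 (adjusted p = 0.0993). Of the genes whose products work with this complex, 0 of 4 tested were called in either direction, among them AHNAK, a membrane scaffold (-0.48, adjusted p = 0.36).

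S100A2, an epidermal S100 protein whose gene is a p53 and p63 target in human cells, had 1807, 7732 and 16443 CPM in organoids against 1293 and 1101 CPM in follicles. All organoid libraries were higher, by 2.49 ± 0.41 (adjusted p = 7.37e-05). The basal keratinocyte genes KRT14 and COL17A1 rose beside it by 2.90 and 2.80, and 4 of the 5 basal markers were called higher. The part of a larger share of basal keratinocytes in the S100A2 rise was not tested, and in bulk samples fewer or more cells of a type and less or more RNA per cell cannot be told apart. S100A16, an S100 protein found in many human tissues, had 121.2, 187.0 and 575.8 CPM in organoids against 83.8 and 64.0 CPM, a rise of 1.53 ± 0.41 (adjusted p = 0.00749). It lost its call without follicle replicate 2 (1.32, adjusted p = 0.144). S100A14, an epithelial S100 protein, had 355.3, 536.2 and 2002 CPM against 268.4 and 297.2 CPM and did not pass the test although the libraries did not overlap (1.01 ± 0.51, adjusted p = 0.147). S100A6, calcyclin, had 369.3, 1475 and 4531 CPM against 1106 and 492.3 CPM and did not pass it either (1.11 ± 0.60, adjusted p = 0.181).

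S100A4 was the member that fell. The 9 organoid libraries held 0 to 37 counts of it each, with a lowest, median and highest level of 0, 2.92 and 28.0 CPM, against 64.1 and 47.7 CPM in follicles. Every organoid library lay below both follicle libraries, and the gene fell by 3.77 ± 0.49 on the log2 scale (adjusted p = 3.8e-06). The library at 0, later inhibitor organoids replicate 1, could hold up to 2.21 CPM at its depth (3 counts, counting error only). All 9 fibroblast markers tested also fell, COL1A1 by 6.32, DCN by 5.66 and VIM by 4.84, and their sum was 78.7 to 623.9 CPM in organoids against 4853 to 7911 CPM in follicles. The part of these cells in the fall of S100A4 was not tested. S100A2, S100A4 and S100A8 kept their calls in this comparison in all 31 alternative settings.

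**Figure D4:**
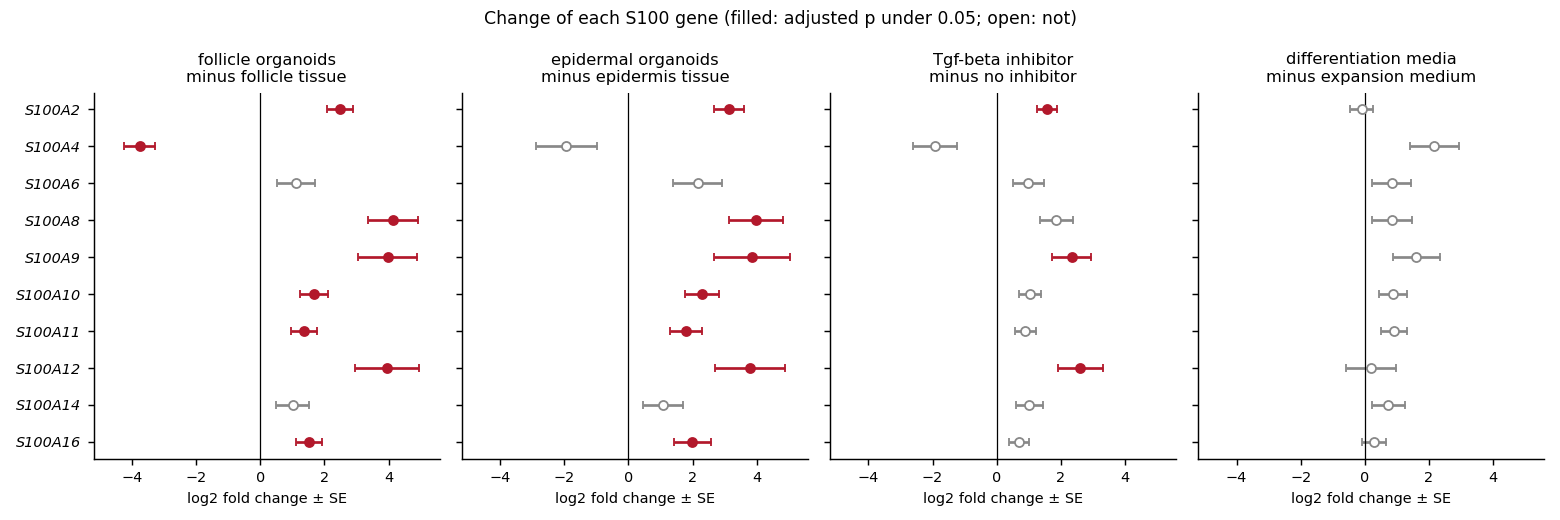
Log2 fold change ± SE (horizontal axis) of each S100 gene in 4 comparisons, with filled points for an adjusted p under 0.05. Filled points lie right of 0 for 7 genes in each comparison of organoids with tissue and for 3 with the Tgf-beta inhibitor, only S100A4 (-3.77, follicle organoids) is filled on the left, and no gene is filled for differentiation media.

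Interfollicular organoids were set against interfollicular epidermis in the same way, with 1 early and 1 later library that are assumed to vary like the other groups. Here 7 members were called higher and 0 lower, where 6.78% of all tested genes were called higher and 4.5% lower (11.3% in all). The median change was 2.22 over the members and -0.14 over all tested genes. The libraries of the 2 sides did not overlap for any of the 10 members, as for 46.8% of all tested genes. The 7 genes are the ones that rose in follicle organoids.

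S100A8 had 1377 (later) and 3073 CPM (early) in interfollicular organoids, against 106.2 and 161.9 CPM in epidermis, a rise of 3.98 ± 0.86 (adjusted p = 0.00422). S100A9 had 126.3 and 402.0 CPM against 12.1 and 23.1 CPM (3.86 ± 1.19, adjusted p = 0.0403), and S100A12 had 1816 and 3566 CPM against 137.6 and 239.0 CPM (3.79 ± 1.09, adjusted p = 0.0286). The early library was the higher one for all 3 genes. For S100A9 the epidermis values came from 5 and 3 counts, and the later organoid value from 21. The neutrophil and monocyte markers summed to 6.01 and 7.69 CPM in these organoids, from 1 and 4 counts, against 100.2 and 132.7 CPM in epidermis. S100A2 had 5766 and 9459 CPM against 704.7 and 979.2 CPM (3.14 ± 0.48, adjusted p = 0.000208), and was the only member here to keep its call in all 31 alternative settings. Beside these rises, 1 of 5 basal keratinocyte markers was higher (KRT5, by 1.70, list median 0.17) and 4 of 6 suprabasal markers were lower, DSC1 (-8.83), KRT10 (-4.32) and DSG1 (-3.30) among them (list median -3.55). The part of a changed mix of cell layers in the member values was not tested.

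S100A10 had 16263 (later) and 34236 CPM (early) in interfollicular organoids, against 4931 and 4703 CPM in epidermis (2.29 ± 0.52, adjusted p = 0.00669). In the early organoids S100A10 was the most counted gene of the library. S100A11 had 2844 and 3448 CPM against 953.3 and 840.4 CPM (1.80 ± 0.49, adjusted p = 0.0212), and S100A16 had 138.3 and 194.3 CPM against 33.8 and 54.0 CPM (2.00 ± 0.58, adjusted p = 0.0304). S100A6 (1104 against 249.5 CPM on average, 2.16, adjusted p = 0.0725, called without early inhibitor follicle organoids replicate 1 or 2 in the shared fit, adjusted p = 0.0445 and 0.0447), S100A14 (699.2 against 324.8 CPM, 1.07, adjusted p = 0.286) and S100A4 (14.9 against 47.5 CPM, -1.94, adjusted p = 0.191) did not pass the test. Leaving out 1 library ended many of these calls. S100A2 alone stayed called without epidermis replicate 1. S100A9, S100A11, S100A12 and S100A16 were not called without epidermis replicate 2, S100A9 not without whole skin replicate 2 (adjusted p = 0.05), and S100A9, S100A10, S100A11, S100A12 and S100A16 were not called without the early organoid library, at changes of 1.69 to 3.33.

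The change from tissue to organoid was also compared between the 2 origins, taking for follicles only the 5 organoid libraries with the inhibitor, which the interfollicular organoids had too. These differences are therefore not those between the changes given above, where all 9 follicle organoid libraries entered. None of the 10 members was called (3.94% of all tested genes were, 3.49% with a positive and 0.455% with a negative difference). An unadjusted p under 0.05 was found for 1 of the 10, S100A4, and for 1543 of the 9888 genes tested. For S100A4 the difference in the change, interfollicular minus follicular, was 2.78 (adjusted p = 0.287). For S100A8 the difference was -1.08, with a 95% interval of -3.20 to 1.03. At this size an interfollicular rise several fold smaller than the follicle rise could not be told from an equal one. Set directly against follicle organoids with the inhibitor, interfollicular organoids had 0 members called, where 6.37% of genes were (5.86% higher and 0.516% lower), and the 2 sides overlapped for all 10, as opposed to 23.1% of genes that did not overlap. S100A4 averaged 14.9 CPM in interfollicular and 2.71 CPM in follicle organoids (2.50 ± 1.10, adjusted p = 0.247), from 3 and 4 counts in the interfollicular libraries. It had 24.0 CPM in the later and 5.77 CPM in the early interfollicular library, against 0 to 6.90 CPM in the 5 follicle libraries. The fibroblast markers DCN, COL1A2 and COL1A1 were called higher in the interfollicular organoids, by 2.40, 2.30 and 2.15. The sum of the 9 fibroblast markers was 775.6 CPM in the later and 176.9 CPM in the early interfollicular library. In follicle organoids with the inhibitor it was 78.7 to 149.0 CPM, and the part of fibroblasts in the S100A4 value was not tested.

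Between tissues no member passed the test. Follicles against epidermis gave 0 called members (2.79% of genes were called, 2.05% higher and 0.738% lower). Epidermis against whole skin gave 0 (1.56% of genes, 0.162% higher and 1.4% lower), with 6 members not overlapping as for 46.4% of genes. Follicles against whole skin gave 0 members and, with edgeR, 0 genes (144 genes at an unadjusted p under 0.05, 0 called with DESeq2), and S100A9 alone did not overlap, as for 31.3% of genes. S100A8 had 142.7 and 124.2 CPM in follicles, 106.2 and 161.9 CPM in epidermis and 108.6 and 171.1 CPM in whole skin, which overlap. The 95% interval of its difference between follicles and epidermis ran from -1.62 to 1.68. The largest difference among the members was that of S100A6, with 1106 and 492.3 CPM in follicles against 190.7 and 308.4 CPM in epidermis, which did not overlap (1.70 ± 0.75, adjusted p = 0.266). S100A16 had 83.8 and 64.0 CPM in follicles against 33.8 and 54.0 CPM in epidermis (0.84 ± 0.57, adjusted p = 0.497). These and S100A2 (1197 against 842.0 CPM on average, 0.51, adjusted p = 0.612) were the 3 members without overlap, as was the case for 49.4% of genes.

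The Tgf-beta inhibitor was tested in follicle organoids in expansion medium, with 5 libraries grown with it and 4 without, pooled over passages. Tgf-beta halts keratinocyte division, and its inhibitors are used to keep epithelial cultures growing. Of the 10 members 3 were called higher with the inhibitor and 0 lower, where 1.92% of all tested genes were called higher and 0.758% lower (2.68% in all). The median change was 1.02 over the members and 0.00 over all tested genes. The libraries did not overlap for S100A2 and S100A14, as for 8.43% of genes.

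S100A2 had 16443, 7732 and 10218 CPM in the early and 12456 and 10888 CPM in the later libraries with the inhibitor, against 1807 and 3838 CPM early and 4600 and 6224 CPM later without it. Every library with the inhibitor was above every library without it, by 1.57 ± 0.31 (adjusted p = 0.00565). S100A2 lost its call without the early replicate 1 that lacked the inhibitor (1.33, adjusted p = 0.063) and without the later replicate 1 that lacked it (1.46, adjusted p = 0.0599). S100A14 had 2002, 599.6, 834.4, 621.0 and 536.2 CPM with the inhibitor against 418.6, 355.3, 392.7 and 439.7 CPM without it, and did not pass the test (1.02 ± 0.42, adjusted p = 0.241). Its change was 0.67 without early inhibitor organoids replicate 1.

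S100A12 had 20644, 2361 and 2027 CPM early and 3494 and 3900 CPM later with the inhibitor, against 190.7 and 776.9 CPM early and 658.7 and 2762 CPM later without it. Only later replicate 2 without the inhibitor reached into the range of the libraries with it, and the rise was 2.61 ± 0.70 (adjusted p = 0.0469). S100A9 had 1178, 283.7, 201.3, 367.2 and 423.6 CPM with the inhibitor against 18.7, 71.1, 64.2 and 302.7 CPM without it (2.33 ± 0.60, adjusted p = 0.0387). S100A8 had 13771, 2039, 2341, 3299 and 3254 CPM with it against 325.3, 1032, 1210 and 3236 CPM without it, and did not pass the test (1.86 ± 0.52, adjusted p = 0.0597). Early inhibitor organoids replicate 1 held the highest level of all 3. Without this library the changes were 1.64 for S100A12 (adjusted p = 0.127), 1.73 for S100A9 (0.0898) and 1.12 for S100A8 (0.154), and S100A2 was then the only member called (1.38, adjusted p = 0.00938). S100A9 and S100A12 also lost their calls in 14 and 17 of the 31 alternative settings, while S100A8 gained one in 7: DESeq2 (1.83, adjusted p = 0.0237), the replicate block, no filter, and the fits without early inhibitor organoids replicate 2 (2.05, adjusted p = 0.0207) or 3 (2.04, 0.0338) or without either library of the medium lacking Noggin, R-Spondin-1 and Forskolin (0.049 and 0.0488). S100A9 and S100A12 were not called when any 1 library of follicles, epidermis, whole skin or later inhibitor organoids, or of early organoids without the inhibitor, was left out, or later replicate 1 without it, and S100A12 not without later replicate 2 either. Their adjusted p reached 0.186 and 0.225.

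The other members did not pass the test. S100A10 averaged 26846 CPM with the inhibitor and 13389 CPM without it (1.03 ± 0.34, adjusted p = 0.126), S100A11 3348 and 1877 CPM (0.89, adjusted p = 0.175), S100A6 2425 and 1439 CPM (0.99, adjusted p = 0.369) and S100A16 276.6 and 173.4 CPM (0.69, adjusted p = 0.312). In the same order, these changes were 0.89, 0.81, 0.60 and 0.37 without early inhibitor organoids replicate 1. S100A4 averaged 2.71 CPM with it and 12.5 CPM without it (-1.92 ± 0.69, adjusted p = 0.163), where the fibroblast markers VIM and DCN were called lower by 1.53 and 1.26. S100A4 was called lower when either differentiation medium library, replicate 1 or 2, was left out of the shared fit (adjusted p = 0.0436 and 0.0444). Early libraries had 2.02, 6.90 and 4.33 CPM of S100A4 with the inhibitor, against 28.0 and 16.1 CPM without it. Later ones had 0 and 1.99 CPM against 2.82 and 2.92 CPM. The later values with the inhibitor came from 0 and 2 counts, where 3 counts make 2.21 and 2.99 CPM. The effect on S100A4, later minus early, was 0.59 ± 2.01 (SE). Whether the difference was confined to early passages could therefore not be told.

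Of the keratinocyte genes known to accompany S100A8 and S100A9 in psoriasis and wounds, 9 were tested. With the inhibitor 5 rose and 0 fell: IL1A, an alarm cytokine (2.28 ± 0.37, 78.2 against 16.2 CPM, adjusted p = 0.0013), SERPINB2, a protease inhibitor (3.28 ± 0.54, 647.6 against 91.8 CPM, adjusted p = 0.0016), TGM1, the transglutaminase of the cornified envelope (3.56 ± 0.62, adjusted p = 0.00277), CXCL8 and IVL. Against follicle tissue 4 rose in follicle organoids and 0 fell, with IL1A (2.37 ± 0.55, 47.2 against 6.04 CPM), CXCL8, the neutrophil attractant (2.72 ± 0.82), and KRT16, a wound keratin (1.99 ± 0.66), at the front. In interfollicular organoids KRT16 alone was called (3.34 ± 0.85, 669.2 against 64.6 CPM in epidermis, adjusted p = 0.014). Of 6 suprabasal keratinocyte markers, 1 was higher and 1 lower with the inhibitor (median -0.30): SCEL, sciellin of the cornified envelope (1.49 ± 0.37, 24.6 against 8.49 CPM, adjusted p = 0.0331), and KRT10, a keratin of differentiated layers (-2.24 ± 0.44, 900.1 against 4995 CPM, adjusted p = 0.00569).

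The inhibitor's effect was compared between passages, and no member and, with edgeR, no gene was called (267 genes at an unadjusted p under 0.05, 1 called with DESeq2). The members with an unadjusted p under 0.05 were S100A8 (-2.59 ± 1.01, later effect minus early), S100A12 (-2.99 ± 1.33), S100A9 (-2.45 ± 1.16) and S100A16 (-1.42 ± 0.63), each with an adjusted p of 1. Early, S100A12 averaged 8344 CPM with the inhibitor and 483.8 CPM without it, and later 3697 and 1711 CPM. Without early inhibitor organoids replicate 1 the difference in effect was -1.10 for S100A8 and -1.03 for S100A12. Pooled over the inhibitor, later against early passages gave 0 called members (0.354% of genes were called, 0.172% higher and 0.182% lower), and all 10 members overlapped, whereas 3.37% of genes did not. S100A4 averaged 1.93 CPM later and 13.2 CPM early (-2.54 ± 0.66, adjusted p = 0.143), and the fibroblast markers DCN and COL3A1 were called lower by 1.79 and 2.65. S100A4 was called when differentiation medium replicate 1 or 2 was left out of the shared fit (adjusted p = 0.0196 and 0.0218).

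Differentiation media, pooled over the 3 versions, were compared with later follicle organoids without the inhibitor. The differentiation files list 18113 entries and the others 20448, with 17141 in common. The annotation or processing behind them may thus differ, which cannot be told apart from the medium. No member was called, where 14.5% of the 9732 genes tested here were (4.4% higher and 10.1% lower), and the median change was 0.85 over the members and -0.14 over all genes (1 member, S100A4, was called with DESeq2). The changes with the smallest p were those of S100A4, S100A11 and S100A9. S100A4 had 4.30, 6.74 and 85.6 CPM (lowest, median and highest) in the 6 differentiation libraries, against 2.82 and 2.92 CPM in expansion medium, and these did not overlap, as for 25.3% of genes (2.17 ± 0.77, adjusted p = 0.062). The differentiation libraries held 1 to 25 counts of it, and the deeper expansion libraries 10 and 7. The 4.30 CPM is 1 count, in a library where 3 counts make 12.9 CPM. A single count there already lies above both expansion values, so the lack of overlap says little. The highest value, 25 counts in differentiation medium replicate 2, stood above the tissue libraries, and without that library the change was 1.30 (adjusted p = 0.172). Without replicate 1 of the same medium it was 2.54 (adjusted p = 0.00629), and without replicate 1 of the medium lacking Noggin and R-Spondin-1 it was 2.35 (0.0459). The fibroblast markers summed to 38.5 to 102.7 CPM in differentiation media against 81.4 to 102.5 CPM in expansion medium, and 4 of them were called lower.

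S100A9 had 193.9, 573.4 and 915.3 CPM in differentiation media against 64.2 and 302.7 CPM in expansion medium (1.61 ± 0.75, adjusted p = 0.15). S100A11 had 2745, 3798 and 7677 CPM against 1597 and 3157 CPM (0.91 ± 0.41, adjusted p = 0.138), and S100A10 12903, 31918 and 40847 CPM against 13013 and 18705 CPM (0.87 ± 0.43, adjusted p = 0.174). The replicates of a medium differed: 7 members, S100A8, S100A9, S100A10, S100A11, S100A12, S100A14 and S100A16, were higher in replicate 2 than in replicate 1 of all 3 media, by 1.28- to 2.63-fold for S100A8 and 2.95- to 4.72-fold for S100A9. S100A8 had 2666, 3291 and 7146 CPM against 1210 and 3236 CPM (0.85, adjusted p = 0.377), S100A6 averaged 4387 against 2201 CPM (0.84, adjusted p = 0.365), and S100A2 5078 against 5412 CPM (-0.10, adjusted p = 0.877, 95% interval -0.84 to 0.63). Among the companions, PI3, the elafin gene, was called higher (5.02 ± 1.31, 2558 against 78.0 CPM, adjusted p = 0.0138). Of the annexins ANXA6 was higher (1.86 ± 0.33, adjusted p = 0.000897) and ANXA2, the partner of S100A10, lower (-2.62 ± 0.52, 7.47 against 41.9 CPM, adjusted p = 0.00205).

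Leaving Noggin and R-Spondin-1 out of differentiation medium gave 0 called members and, with edgeR, 0 called genes (260 at an unadjusted p under 0.05, 0 with DESeq2). All 10 members overlapped, whereas 21.5% of genes did not. The medium comparisons share libraries, so that their values are not independent. Leaving out Forskolin as well gave 0 members and 0 genes with edgeR (329 at an unadjusted p under 0.05, 0 with DESeq2). S100A6 had 5022 and 9407 CPM without Forskolin against 5003 and 2018 CPM with it (1.04 ± 0.71), and S100A16 had 264.7 and 545.8 CPM against 207.1 and 207.4 CPM (0.96 ± 0.48). These 2 members were the ones without overlap, as were 22.9% of genes. With 2 libraries a side, the 95% interval for S100A8 ran from -1.21 to 1.83 for Forskolin and from -1.25 to 1.79 for Noggin and R-Spondin-1.

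The levels can be put in order over the 12 groups. S100A8 was highest in early inhibitor follicle organoids (6050 ± 6688 CPM, SD, n = 3), followed by the 3 differentiation media (4931, 3973 and 3291 CPM) and later inhibitor organoids (3276 CPM), each overlapping its neighbour, and all organoid groups lay above tissue (133.4 to 139.8 CPM). The first place rests on replicate 1: without it the early inhibitor mean was 2190 CPM, in place 7, and the medium without Noggin, R-Spondin-1 and Forskolin was highest. S100A2 was highest in later and early inhibitor follicle organoids (11672 ± 1109 CPM, SD, n = 2, and 11464 ± 4487 CPM, SD, n = 3), which overlapped (8975 CPM early without replicate 1), and lowest in epidermis (842.0 CPM). S100A6 was highest without Noggin, R-Spondin-1 and Forskolin (7214 ± 3101 CPM, SD, n = 2) and lowest in epidermis (249.5 CPM). S100A10 had its highest group mean in early interfollicular organoids (34236 CPM, n = 1), though single libraries of other groups reached 40847 CPM. S100A11 was highest in differentiation medium without Noggin and R-Spondin-1 (5217 ± 3480 CPM, SD, n = 2), overlapping the other differentiation media. S100A12 was highest in early inhibitor follicle organoids (8344 ± 10653 CPM, SD, n = 3). Without replicate 1 the S100A12 mean of that group was 2194 CPM, in place 3, and later inhibitor organoids were highest (3697 CPM). Early follicle organoids without the inhibitor were the lowest organoid group for S100A2, S100A6, S100A8, S100A9, S100A10, S100A11, S100A12, S100A14 and S100A16.

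Among the members, the profiles over the 12 group means of log2 CPM were most alike for S100A8 and S100A9 (Pearson r = 0.985, Spearman rho = 0.867), S100A9 and S100A11 (r = 0.984, rho = 0.958) and S100A2 and S100A12 (r = 0.982, rho = 0.958). S100A4 ran against the others, most so against S100A2 (r = -0.849, rho = -0.804). The points are group means that share tissue, depth and medium, and 3 of the groups are tissue at a low level of most members. Counted per library, S100A8 exceeded S100A9 by 4.24- to 18.8-fold. Outside the family, the profile most like that of S100A8 was FBLIM1, which codes for a cell adhesion protein (r = 0.995, rho = 0.937, n = 12), and then NQO1 (r = 0.974) and UPP1 (r = 0.97). For S100A2 it was PRKCDBP (r = 0.98), BCAT1 (0.968) and KCNAB2 (0.962), and for S100A9 SERPINB6 (0.984), FBLIM1 (0.976) and UPP1 (0.967). S100A10 was closest to SERPINB6 (0.979), FBLIM1 and CARHSP1, S100A11 to SERPINB6 (0.979), FBLIM1 and RRAS, and S100A12 to KCNAB2 (0.962), LYPD3 and SQRDL. S100A14 was closest to LYPD3 (0.917), ST6GALNAC4 and SQRDL, S100A16 to EIF6 (0.966), COX8A and FBLIM1, S100A6 to GRN (0.945), CAPN2 and TMEM259, and S100A4 to MATN2 (0.94), TSC22D3 and ZNF438.

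Other S100 genes did not follow the members. S100A3, the S100 protein of the hair cuticle, had 1254 and 1678 CPM in follicles against 140.0 and 23.1 CPM in epidermis (3.99 ± 0.57, adjusted p = 0.000582). In follicle organoids it had 5.33 to 17.5 CPM, far below follicles (-7.08 ± 0.35, adjusted p = 2.71e-11). S100B, a glial and melanocyte S100 protein, averaged 0.37 CPM in follicle organoids and 11.9 CPM in follicles (-5.13 ± 0.75, adjusted p = 4.63e-05). S100A13 had 3.34 to 14.4 CPM in follicle organoids against 13.1 and 9.41 CPM in follicles and was not called, and its gene overlaps S100A1 in the RefSeq dog annotation, so that reads of the 2 may not be separable. S100A1, S100A5, S100G and S100P were too low to test. No entry had exactly the name S100A7 or S100Z, so that these were not analysed. The fused S100 genes, which in human carry an S100 domain at the start of a long cornified-envelope or hair protein, fell in follicle organoids in 4 of 4 tested cases: TCHH, trichohyalin, by 6.55, TCHHL1 by 5.55, CRNN by 5.43 and FLG, filaggrin, by 3.26. FLG was also lower in interfollicular organoids (86.8 against 995.4 CPM in epidermis, -4.26 ± 1.25, adjusted p = 0.0307), the 1 called gene of the 4.

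Genes for receptors of S100 proteins gave 0 rises and 3 falls of 5 tested in follicle organoids against follicles: CD36 (-6.45 ± 0.46, 0.38 against 39.7 CPM), ALCAM (-1.55 ± 0.33) and SCARB1 (-1.11 ± 0.32). BSG, a receptor for S100A9 in human cells, was higher in interfollicular organoids than in epidermis (174.3 against 56.9 CPM, 1.79 ± 0.46, adjusted p = 0.015). None of the 5 was called with the inhibitor. In the RefSeq dog assembly S100A8, S100A12 and S100A9 neighbour each other, next to S100A2, S100A4, S100A6, S100A14 and S100A16 on the same chromosome, while S100A10 and S100A11 neighbour each other elsewhere. Of the other genes listed from the human region that holds this cluster, 8 were tested, and 0 rose and 1 fell in each comparison of organoids with tissue: CTSK, cathepsin K, by 3.60 in follicle and 2.37 in interfollicular organoids.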

How the data were processed

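The authors deposited 1 gene table per library, made by CEL-seq2. Its values are estimated counts as deposited, mostly whole, with fractions on 4.91 to 10.6% of lines. Reads were mapped with BWA 0.6.2-r126 to CanFam3.1, per the submitters' processing notes. Not given in the sources used here: how reads were counted, on which annotation, and whether molecular identifiers were collapsed. Values were rounded to whole numbers, and all counts of the 10 members were already whole. Entries naming no gene, 0.461 to 2.16% of a library's counts, were left out.

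edgeR 4.0.16 (R 4.3.3) was run on all 23 libraries with TMM scaling, its default filter on low counts and the quasi-likelihood test, on 11 residual degrees of freedom (common dispersion 0.0986). Adjusted p is Benjamini-Hochberg over all tested genes, and a gene is called under 0.05. Groups with 1 library are assumed to vary like the others. SE is the log2 fold change divided by the root of F. The programs were tested on simulated data.

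The members and all lists were chosen with earlier results of these data known. The text names all members, the 3 genes whose 12 group means correlate best with each member, and at most 3 genes per list and comparison, by smallest p. LAPTM5, IVL and CXCL8 with the inhibitor, and FLG in follicle organoids, were named beyond this after their values were seen. Comparisons that share libraries, such as those with follicle organoids, are not independent. Alternatives were DESeq2 1.42.0, other scalings and filters, a replicate block, other sets of libraries and leaving out each library. Libraries were compared for duplicates: the lowest chi-square per degree of freedom within a group was 4.96, so none were taken as 1 library. The 95% intervals come from the same fit and hold the spread between libraries, while the floors of 3 counts cover counting error only.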

Additional observations from a re-analysis of the deposited data

How the results depend on the processing

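Over 33 alternative settings, not all of which touch every comparison, 4 of the 18 calls on members held in every one: S100A2, S100A4 and S100A8 in follicle organoids against follicles, and S100A2 in interfollicular organoids against epidermis. No call reversed. Of the 112 member results not called, 15 were called in some setting and 49 changed sign while not called. The number of members called was 4 to 8 for follicle organoids against follicles when 1 library was left out. For interfollicular organoids against epidermis it was 3 with library totals in place of TMM and 1 to 8 with 1 library left out. For the inhibitor it was 1 with library totals, 8 with no filter on low counts, 1 with only the groups compared in the fit and 0 to 4 with 1 library left out. With no filter it was 1 for follicles against epidermis, 3 for the inhibitor's effect later minus early, 1 for later against early passages and 2 for differentiation media. For differentiation media it was also 1 with DESeq2, 1 against both later expansion groups, and 0 to 1 with 1 library left out, as for later against early. With no filter, S100A6 and S100A14 were also called higher in follicle organoids against follicles (edgeR, adjusted p = 0.0084 and 0.0221). S100A6 was then called higher in interfollicular organoids against epidermis too (adjusted p = 0.000106). The causes of these changes were not tested.

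The labels tie same-numbered samples by number only. Deviations of same-numbered samples correlated over 0.1 in 6 of 45 pairs of groups and under -0.1 in 6 (range -0.337 to 0.44), and in all 3 pairs of differentiation media (0.44, 0.337 and 0.367), a hint from the data that their numbers mark something shared. A replicate block within the differentiation media, chosen after seeing the data, gave 0 called members and 0 called genes for Noggin and R-Spondin-1 and for Forskolin, as without it. With the replicate block, 8 members were called in follicle organoids, 7 in interfollicular organoids, 4 with the inhibitor (S100A8 added, 2.26, adjusted p = 0.0202) and 0 in the other comparisons. Over all genes the block gave 18 calls for later against early, against 35 without it.

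Counts over all genes moved by more than 1.5 times in these cases. Follicles against epidermis gave 478 (no filter), 465 (only the groups compared) and 179 (genes listed in all files, an alternative chosen after seeing the data), against 276. Epidermis against skin gave 285 (no filter) and 80 (genes listed in all files) against 154, interfollicular organoids 396 (only the groups compared) against 1115, and the inhibitor 639 (no filter) against 265. Later against early gave 171 (no filter), 59 (DESeq2) and 21 (only the groups compared) against 35, and differentiation media 236 (only the groups compared) and 2343 (both later expansion groups) against 1411. Leaving out 1 library gave 114 to 315 for follicles against epidermis, 64 to 186 for epidermis against skin, 1389 to 2955 for follicle organoids (2772 in full), 416 to 1237 for interfollicular organoids, 81 to 675 for the difference between the organoid changes (390), 68 to 880 for interfollicular against follicle organoids (630), 109 to 321 for the inhibitor, 9 to 53 for later against early and 412 to 1677 for differentiation media, so that the background shares printed beside the members move with single libraries. Where the main count was 0, no filter gave 2 for follicles against skin (10 with only the groups compared), 39 for the inhibitor's effect by passage, 12 for Noggin and R-Spondin-1 and 20 for Forskolin. Library totals in place of TMM moved the share of higher calls from 73.6 to 50.3% for follicles against epidermis, 10.4 to 25.7% for epidermis against skin, 32.3 to 21.3% for follicle organoids, 60.1 to 26.2% for interfollicular organoids, 88.5 to 72.7% for the difference between the organoid changes and 71.7 to 53.8% for the inhibitor. The median of all genes for interfollicular organoids was -0.70 with library totals and -0.14 with TMM. Counts of 1 to 4 for S100A4 in single organoid libraries limit its precision.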

Other observations

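The ratio of S100A8 to S100A12 counts was 0.667, 0.863 and 1.16 in the early and 0.944 and 0.834 in the later follicle organoids with the Tgf-beta inhibitor, against 1.71 and 1.33 early and 1.84 and 1.17 later without it. No library with the inhibitor reached the lowest library without it, in either passage. The geometric means were 0.879 with the inhibitor (n = 5) and 1.49 without it (n = 4), a log2 difference of -0.76 (exact two-sided permutation p = 0.0159, the smallest the permutations can give). This ratio was chosen after the values had been seen, so that the p is a description. In differentiation media the ratio was 1.19 to 4.96, in interfollicular organoids 0.758 and 0.862, and in tissue 0.677 to 1.13.

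S100A3 had no count in any of the 6 differentiation libraries, against 47 and 24 counts in later follicle organoids without the inhibitor, a change of -6.79 ± 1.23 (edgeR, adjusted p = 0.00147). CD74 and DLA-DRA also had no count in the differentiation libraries. The differentiation files list another set of entries than the others, so that medium and annotation or processing cannot be told apart in these 3 genes. With no count on 1 side, the size of the S100A3 change is not a measured fold. S100A3 was higher in interfollicular than in follicle organoids with the inhibitor (28.8 and 174.4 against 7.36 to 17.5 CPM, 2.65 ± 0.50, adjusted p = 0.00164).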
